A study of Mus musculus with 2 samples.

Results

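The Hippo pathway and YAP-TEAD genes described here are 10 genes picked by symbol: the upstream regulator Nf2, the kinases Lats1 and Lats2, the coactivators Yap1 and Wwtr1, their DNA-binding partner Tead1, the TEAD-binding protein Vgll4, and Amotl2, Ankrd1 and Axl, which stand among the targets of YAP. All 10 were found among the 35129 gene symbols of the files. All 10 reached 1 FPKM on average (reads per kilobase of gene model, scaled to the size of the library) over both libraries, the level from which genes were compared and which 12419 genes reached. Axl reached this level only through its Ad-GFP value of 1.18 FPKM, since its Ad-KLF14 value was 0.827 FPKM.

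Transcripts were measured by RNA sequencing of total RNA from primary hepatocytes of C57BL/6 mice. Cells labelled Ad-KLF14 received an adenovirus that expresses KLF14, a zinc finger transcription factor that binds GC-rich DNA, and cells labelled Ad-GFP received a control adenovirus, which the design text calls an empty vector. Both groups therefore carry an adenovirus, and neither the viral dose, the time after infection nor the number of animals is given in the labels. Each group holds 1 library, so the conditions could not be tested against each other, and the differences below are those of 2 single libraries.

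Read totals recovered from the FPKM steps were 11151711 for Ad-KLF14 and 11311344 for Ad-GFP. Klf14 was at 13164 FPKM in the Ad-KLF14 library and at 0.298 FPKM in the Ad-GFP library, as the labels say, though a read may come from the virus or from the cell's own gene. The hepatocyte marker Alb was at 4172 FPKM with Ad-KLF14 and 5115 FPKM with Ad-GFP. Of 7 hepatocyte markers found, all had a mean above 1 FPKM and none was 2-fold apart, beside 15.4% of all genes. The 4 furthest from 0 on the log2 ratio were Cps1, the first enzyme of the urea cycle (2.80 against 4.91 FPKM), the fibrinogen chain gene Fgb (459 against 658 FPKM), the liver transcription factor gene Hnf4a (34.1 against 26.2 FPKM) and Serpina1a, which has near-identical copies and is therefore uncertain (96.8 against 124 FPKM).

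The Hippo pathway is a kinase cascade that limits tissue growth. MST kinases with the scaffold SAV1 activate LATS kinases with their MOB1 partners, and LATS phosphorylates the coactivators YAP (Yap1) and TAZ (Wwtr1, not to be confused with tafazzin), which are then kept in the cytoplasm or degraded. Unphosphorylated YAP and TAZ enter the nucleus, bind TEAD factors and switch on genes such as Ctgf, Cyr61, Ankrd1 and Amotl2, while VGLL4 competes for TEAD. In the liver the pathway restrains organ size and hepatocyte proliferation, and YAP is more active in bile duct cells than in resting hepatocytes. Much of this control acts on phosphorylation and location of proteins, which transcript levels do not show.

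TEAD factors recognise the letters GGAATG, so the 250 bases before each annotated start were searched for them on both strands. RefSeq promoter sequences (GRCm38.p6) were at hand for 9 of the 10 genes, Tead1 being the exception. Bases just past a start were found in a GENCODE M21 transcript of the gene for 7 of these 9. The starts of the others, and their match positions, are less certain. GGAATG was found in 6 of these 9 genes and in 7 of their 12 windows, 2 of which overlap in Wwtr1, against 12.6% of 32851 windows of the same length over all genes. The stretches are shown because they set Ankrd1, with its pair of matches, beside the genes that have 1. Each runs 5′ to 3′ along the gene, and capitals mark GGAATG or its reverse complement CATTCC.
Ankrd1, first match: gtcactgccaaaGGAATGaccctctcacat
Ankrd1, next match: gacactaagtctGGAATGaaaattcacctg
Amotl2: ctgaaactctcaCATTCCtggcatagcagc
Axl: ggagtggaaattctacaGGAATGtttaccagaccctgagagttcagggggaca
Yap1: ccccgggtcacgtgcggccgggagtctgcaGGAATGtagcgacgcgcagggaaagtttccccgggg
Wwtr1: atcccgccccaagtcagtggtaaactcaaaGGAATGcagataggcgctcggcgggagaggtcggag
Vgll4: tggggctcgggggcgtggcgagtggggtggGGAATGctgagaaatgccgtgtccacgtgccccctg

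In GRCm38.p6 the Ankrd1 stretches lie on the minus strand at chr19:36120037-36120066 and chr19:36119950-36119979, with the matches at −210 and −123 bases from the start. The Amotl2 stretch is on the plus strand at chr9:102717727-102717756. These 3 stretches overlap exons of other transcripts of the same gene in GENCODE M21, so only short pieces are shown. The Axl (chr7:25788931-25788983), Yap1 (chr9:8004702-8004767), Wwtr1 (chr3:57576011-57576076) and Vgll4 (chr6:114969250-114969315) stretches are on the minus strand and overlap no annotated exon. The GC box GGGCGG, a binding sequence of the SP and KLF family, was found in 8 of the 9 genes, Ankrd1 being the exception, beside 35.4% of all genes with a window. The windows of the members were mostly richer in G and C than the median of 52.4% over all windows, with 55.6% in Ankrd1, 70.4% in Amotl2 and 76.4% in Yap1. CCACCC, another sequence bound by KLF factors, was found in 3 of the 9, Lats2, Vgll4 and Wwtr1, beside 30.6% of all genes with a window. A match is only a match of letters, and no binding was measured.

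Ankrd1 stood apart from the other 9 genes, which were all within 2-fold on log2(FPKM + 1), Nf2 only just. On that scale 1 of the 10 genes was at least 2-fold lower with Ad-KLF14, beside 8.99% of all 12419 genes, and 0 were at least 2-fold higher, beside 6.37%. Of the 10, 5 were below 0 and 5 above, and their median log2 ratio was −0.13 beside −0.03 over all genes. With a minimum mean of 5 FPKM, which leaves out Axl, the median of the members was on the other side of 0, at 0.0021. These shares do not set the 10 genes apart as a group. A range given with a fold or ratio of FPKM below is its 95% Clopper-Pearson counting interval, which holds counting error alone, without any variation between cultures. This interval left out a ratio of 1 in 6 of the 10 genes, beside 73.1% of the 9268 genes for which it was computed, so the members did so no more often than genes at large. Reads given below as at least a number are the smallest whole numbers that give both values. For some genes these came out too high, and the interval is then too narrow.

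**Figure D1:**
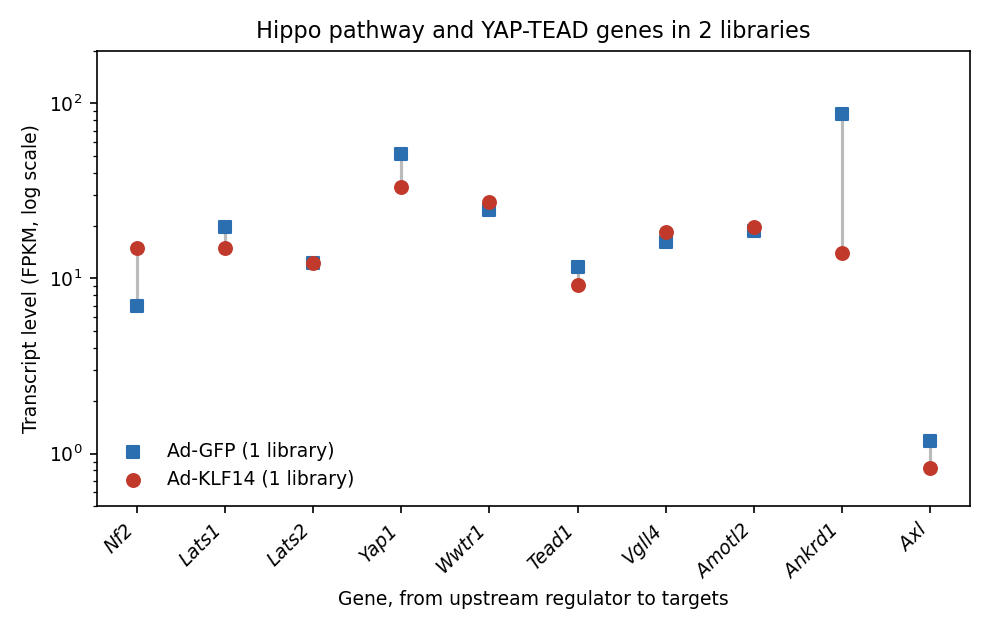
Transcript level in FPKM (log axis) of the 10 genes in the Ad-GFP library (blue squares) and the Ad-KLF14 library (red circles), 1 library each, with a grey line joining both values of a gene. Ankrd1 has the widest gap, 14.0 against 87.5 FPKM, Nf2 is the gene furthest in the other direction, and Axl is the lowest in both libraries.

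Nf2 encodes merlin, a membrane-linked scaffold that helps activate LATS kinases. It was at 14.8 FPKM with Ad-KLF14 and at 7.0 FPKM with Ad-GFP, from at least 779 and 372 reads, a ratio of 2.12 (1.87 to 2.41). The library with KLF14 was the higher. On log2(FPKM + 1) the difference was 0.99, just under the 2-fold line, and 93.4% of all genes had a lower log2 ratio. The Ad-GFP level of Nf2 was above that of 34.8% of genes, and the Ad-KLF14 level above that of 56.1%.

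The LATS kinases phosphorylate YAP and TAZ directly. Lats1 was at 15.0 FPKM with Ad-KLF14 and 19.8 FPKM with Ad-GFP, a ratio of 0.758 (0.664 to 0.864). Lats2, which is itself a YAP target, was at 12.2 FPKM in both libraries, from at least 707 and 716 reads, a ratio of 1.00 (0.901 to 1.11). A difference in Lats2 was thus not detectable at this depth, and the kinases were not lower together. Lats1 was 1.62 times as abundant as Lats2 per length with Ad-GFP and 1.23 times with Ad-KLF14.

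YAP and TAZ are related coactivators that bind the same TEAD factors. Yap1 was at 33.2 FPKM with Ad-KLF14 and 51.5 FPKM with Ad-GFP, from at least 1543 and 2429 reads, which is 1.55-fold lower (1.46 to 1.66). Wwtr1 was at 27.5 FPKM with Ad-KLF14 and 24.5 FPKM with Ad-GFP, a ratio of 1.12 (1.04 to 1.21). The ranges of both genes leave out 1, on opposite sides. The Yap1 level was 2.10 times the Wwtr1 level with Ad-GFP and 1.21 times with Ad-KLF14, on FPKM. With Ad-GFP, Yap1 was above 86.2% of all genes and Wwtr1 above 69.4%, and with Ad-KLF14 they were above 77.0% and 72.5%.

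Tead1 encodes a TEAD factor, which carries YAP and TAZ to DNA. Its level was 9.24 FPKM with Ad-KLF14 and 11.6 FPKM with Ad-GFP, a ratio of 0.794 (0.731 to 0.862). Vgll4 encodes a protein that occupies TEAD in place of YAP, and was at 18.5 FPKM with Ad-KLF14 and 16.1 FPKM with Ad-GFP (ratio 1.15, 0.960 to 1.37). The range of Vgll4 holds 1. Tead1 was thus slightly lower, while a difference in Vgll4 was not detectable at this depth. For Lats1 and Vgll4 the recovered gene lengths of 2405 and 1293 bases fall short of their longest transcripts (7209 and 2198 bases), so their reads may be too low and their ranges too wide.

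Of the targets, Amotl2 encodes a junction protein that binds YAP and holds it outside the nucleus. It was at 19.7 FPKM with Ad-KLF14 and 18.7 FPKM with Ad-GFP, from at least 923 and 886 reads, a ratio of 1.06 (0.963 to 1.16). Ankrd1 encodes a nuclear ankyrin repeat protein first known from heart muscle and is widely used as a readout of YAP. Ankrd1 was at 14.0 FPKM with Ad-KLF14 and 87.5 FPKM with Ad-GFP, from at least 276 and 1746 reads, which is 6.24-fold lower (5.49 to 7.11). Only 27 of the 12419 genes had a lower log2 ratio than the −2.56 of Ankrd1. Its level was above that of 92.6% of genes in the Ad-GFP library and of 54.5% in the Ad-KLF14 library.

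The targets Ankrd1 and Amotl2 were in the opposite order of level in the libraries. The Ankrd1 level was 4.68 times that of Amotl2 with Ad-GFP and 0.710 times with Ad-KLF14, on FPKM. Both have GGAATG within 250 bases of their start, as shown above. Axl, a receptor tyrosine kinase of macrophages and other cells that clears dying cells and is a YAP target in tumour cells, was at 0.827 FPKM with Ad-KLF14 and 1.18 FPKM with Ad-GFP, from at least 38 and 55 reads (ratio 0.701, 0.451 to 1.08). That range holds 1, so a difference in Axl was not detectable at this depth.

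**Figure D2:**
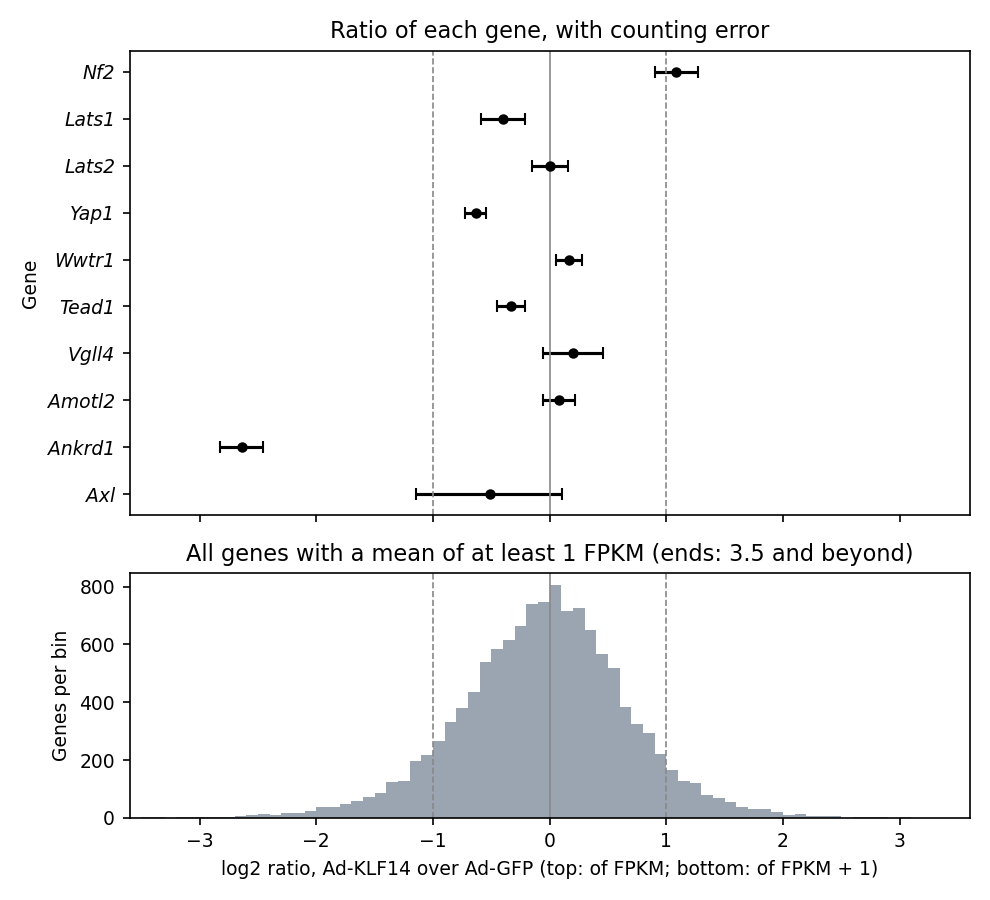
Top: log2 ratio of FPKM, Ad-KLF14 over Ad-GFP, for each of the 10 genes, with bars for the 95% counting interval. Bottom: number of genes per bin of the log2 ratio of FPKM + 1 over all 12419 genes, values beyond 3.5 being put in the end bins, with dashed lines at 2-fold in both panels. Ankrd1 lies in the sparse left tail, Nf2 near the right dashed line and the other 8 genes in the bulk.

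Around the 10 genes, 33 more regulators and partners of the pathway were listed, of which 27 passed the level of 1 FPKM. Of these 27, 2 were lower by 2-fold or more and 1 was higher by as much, which is 3 apart beside 15.4% of all genes. Their median log2 ratio was −0.33, and 21 of 27 were below 0 beside 51.7% of all genes. These 27 genes thus lay mostly below 0 without passing 2-fold more often than genes at large. Hepatocyte markers lay mostly below 0 as well, with 6 of 7 and a median of −0.29, while the 10 members split 5 and 5. The 27 genes thus shared their lean with the hepatocyte markers. Of the markers read further below, 3 of 3 bile duct genes were below 0, but only 1 of 6 macrophage and 1 of 3 endothelial genes. In a bulk sample, fewer cells of a type and less RNA per cell cannot be told apart.

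In the kinase cassette, Stk3 and Stk4 encode the kinases MST2 and MST1. Stk3 was at 5.54 FPKM with Ad-KLF14 and 15.3 FPKM with Ad-GFP, from at least 180 and 503 reads, which is 2.76-fold lower (2.32 to 3.28). Stk4 was at 16.5 and 22.5 FPKM, which is 1.36-fold lower (1.25 to 1.48). The scaffold gene Sav1 was at 15.5 against 17.2 FPKM, where the range of 0.749 to 1.09 holds 1, and Mob1a, a partner of LATS listed in the files under its older symbol, was at 29.9 against 37.9 FPKM (0.702 to 0.886). Stk3 was the 1 of the 7 cassette genes past 2-fold, beside 15.4% of all genes. The median of all 7 was −0.33 beside −0.03 over all genes.

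Among 18 measured upstream regulators, Nf2 was the highest on the log2 ratio. Dlg5, a junction scaffold, was at 2.43 FPKM with Ad-KLF14 and 6.78 FPKM with Ad-GFP, which is 2.79-fold lower (2.38 to 3.27) and past the 2-fold line. Frmd6, a relative of merlin, was at 5.83 and 11.8 FPKM (ratio 0.493, 0.429 to 0.567), under 2-fold with the pseudocount. The tumour suppressor gene Rassf1, whose product binds MST kinases, was at 73.2 against 116 FPKM, and Strn3, a subunit of a phosphatase complex that opposes MST kinases, at 15.0 against 25.2 FPKM. Nf2 and its relative Frmd6 thus lay on opposite sides.

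The other TEAD genes were lower beside Tead1. Tead2 was at 16.7 FPKM with Ad-KLF14 and 31.2 FPKM with Ad-GFP, from at least 394 and 747 reads (ratio 0.535, 0.472 to 0.605). Tead3 was at 1.89 against 3.22 FPKM (0.413 to 0.827) and Tead4 at 1.40 against 2.33 FPKM (0.412 to 0.869). None of the 4 TEAD genes was 2-fold apart, beside 15.4% of all genes. Together they summed to 29.2 FPKM with Ad-KLF14 and 48.4 FPKM with Ad-GFP. Tead2 was the most abundant of them in both libraries, at 2.68 times the Tead1 level with Ad-GFP and 1.81 times with Ad-KLF14. Ptpn14, a phosphatase that binds YAP, restrains it and is also counted among its targets, was at 19.4 FPKM with Ad-KLF14 and 8.53 FPKM with Ad-GFP (ratio 2.28, 2.11 to 2.45).

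A list of 22 YAP-TEAD targets, which includes Amotl2, Ankrd1, Axl and Lats2, had 18 genes past the level of 1 FPKM. Of these 18, 5 (27.8%) were at least 2-fold lower beside 8.99% of all genes, and 1, Ptpn14, was at least 2-fold higher beside 6.37%. The median log2 ratio was −0.51, and 14 of the 18 were below 0. The list was chosen with earlier results of these data known, so its share past 2-fold is no independent evidence. Of the 5, Igfbp3 passed 1 FPKM only through its Ad-GFP value, so its place among the lower genes follows in part from how it was kept. Without Amotl2, Ankrd1, Axl and Lats2, 4 of 14 were at least 2-fold lower, Igfbp3 again among them. The remaining 4 listed targets, Foxf2, Ccdc80, Arhgef17 and Rbms3, did not reach a mean of 1 FPKM.

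Besides Ankrd1, 4 targets were past 2-fold on the lower side. The matricellular Ctgf was at 12.5 FPKM with Ad-KLF14 and 100.3 FPKM with Ad-GFP, which is 8.02-fold lower (7.16 to 9.01), and Igfbp3, which binds insulin-like growth factors, was at 0.550 against 7.15 FPKM, from at least 15 and 198 reads, or 13.0-fold lower (7.70 to 23.7). F3, tissue factor, was at 2.01 against 23.1 FPKM, from a lower limit of 3 and 35 reads (11.5-fold lower, 3.63 to 58.5). The recovered gene length of F3, 134 bases, falls far short of its longest transcript (1872 bases). Its reads may therefore be too low and its range too wide. Nt5e, which makes adenosine at the cell surface, was at 16.6 against 35.8 FPKM and is the fifth of these lower targets, named here after its values were seen. Cyr61 and Nuak2 were also named after their values were seen. Cyr61, the CCN family relative of Ctgf, was at 145 against 212 FPKM (ratio 0.683, 0.653 to 0.714), and Nuak2, a kinase that acts on the actin cytoskeleton, was at 15.1 against 7.54 FPKM (counting interval of the ratio 1.72 to 2.33). The targets thus went in both directions.

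**Figure D3:**
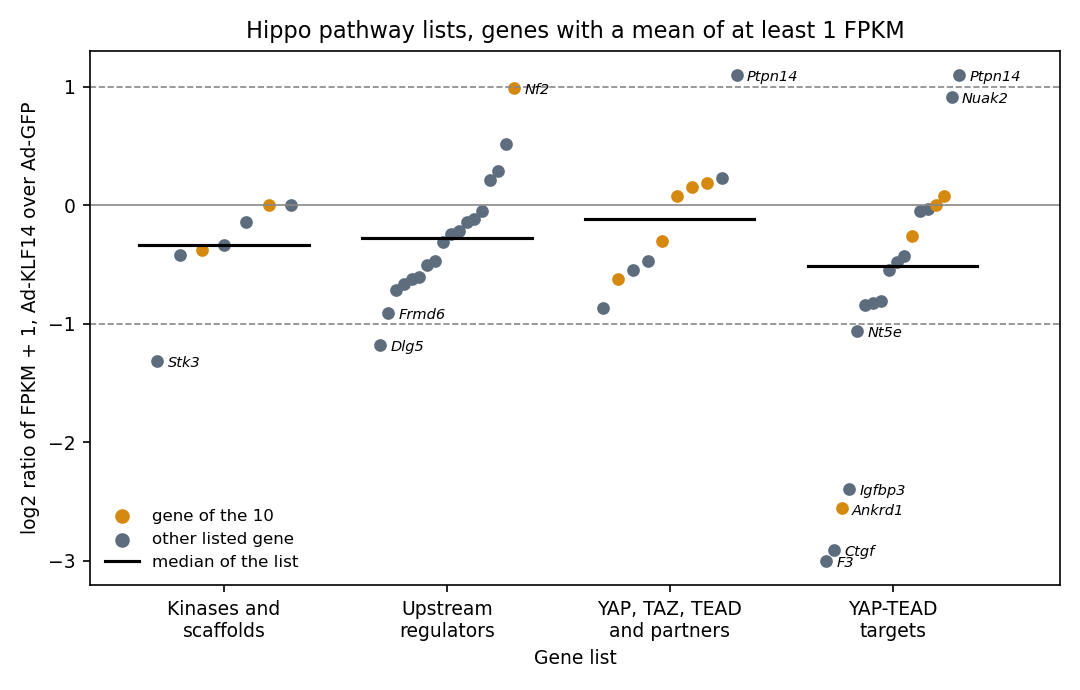
log2 ratio of FPKM + 1, Ad-KLF14 over Ad-GFP, of every gene past a mean of 1 FPKM in 4 lists (kinases and scaffolds, upstream regulators, YAP with its partners, and targets). Orange points are the genes of the 10, grey points the other listed genes, black lines the list medians and dashed lines 2-fold. A gene in more than 1 list is drawn in each. F3, Ctgf, Ankrd1 and Igfbp3 lie well below the other targets, while Ptpn14 is above the upper line.

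Several YAP targets are also expressed in bile duct, mesenchymal and immune cells of the liver, so markers of those cells were read beside them. Of 7 bile duct markers 3 reached a mean of 1 FPKM. Of these 3, 2 (Spp1 and Cldn4) were at least 2-fold lower, beside 8.99% of all genes. The summed level of the 7 was 235 FPKM with Ad-KLF14 and 795 FPKM with Ad-GFP, of which Spp1 gave 191 and 681 FPKM and Cldn4 40.8 and 107 FPKM. Sox9 was at 2.88 against 4.26 FPKM. Below a mean of 1 FPKM, the bile duct keratin Krt19 was at 0.196 against 1.74 FPKM, from at least 3 and 27 reads (8.87-fold lower, 2.73 to 45.7), and Epcam was at 0.392 against 0.257 FPKM. Krt19 and Epcam are named after their values were seen. The keratin Krt7 and the channel gene Cftr were at 0 in both libraries. Spp1, Cldn4, Sox9 and Krt19 were thus lower in the same library as Ankrd1, Ctgf and Yap1. Epcam was not lower, and Krt7 and Cftr show no difference. The part of bile duct cells in the values of Ankrd1, Ctgf and Yap1 was not tested.

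Stellate cell and fibroblast markers were near 0. Of 13 only the proteoglycan gene Dcn reached a mean of 1 FPKM (2.14 against 2.72 FPKM), Hand2 and Ngfr were at 0 in both libraries, and the summed level was 4.30 FPKM with Ad-KLF14 and 4.01 FPKM with Ad-GFP. Below a mean of 1 FPKM, Reln (0.981 against 0.166 FPKM) and Pdgfra (0.792 against 0.296 FPKM) were higher with Ad-KLF14. Col3a1 (0.048 against 0.207 FPKM) was lower. Only the counting intervals of Reln, Pdgfra and Col3a1 leave out 1 among these markers, and they are named after their values were seen. Endothelial markers were low as well, with 3 of 9 past a mean of 1 FPKM (Pecam1 at 2.03 against 1.12 FPKM, Cdh5 at 2.09 against 1.75 FPKM, Eng at 1.68 against 1.81 FPKM) and a summed level of 8.25 against 7.04 FPKM. None of the 9 endothelial markers was at 0. Macrophage markers summed to 178 against 85.8 FPKM over 10 genes, of which the lysosomal protein gene Cd68 gave 160 and 71.1 FPKM. Adgre1 was at 4.09 against 2.78 FPKM, Itgam at 2.83 against 2.36 FPKM and Cd5l at 2.73 against 2.30 FPKM, while Csf1r (1.04 against 1.05 FPKM), Ptprc (0.602 against 0.656 FPKM) and Vsig4 (0.438 against 0.679 FPKM), named after their values were seen, were not higher. No macrophage marker was at 0. The Axl level lay in the range of these low markers, and their part in it was not tested.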

How the data were processed

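RNA from 2 groups of cells, 1 library each, was compared. The authors deposited 1 table of FPKM values per library, for 35129 symbols. Bowtie 0.12.2 and the mm8 build are named, per the submitters' processing notes. The design text also names BWA, TopHat and Cufflinks but speaks of retina and triplicates. Gene models, counting rule and pooling are not given in the sources used here.

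Reads were recovered as the smallest whole numbers and whole gene length that give both values (19652 of 19667 genes above 0, relative tolerance 1e-12). Of 30 candidate factors for the totals, the chosen one gave a length equal to a GENCODE M21 transcript in 14.6% of 3183 genes, and the next best gave 10.2%. Read numbers are lower limits where they share a factor with the gene length. They came out too high for some genes, since they sum to 12270764 in the Ad-KLF14 library, above its total of 11151711. For such genes a read number is no lower limit, and the counting interval is too narrow. No interval was computed where the implied length exceeded the longest transcript by more than 5%, and no member was among these. Depth limits precision, and intervals cover counting error only. Python 3.11.15 and scipy 1.17.1 were used, and scripts were tested on simulated data.

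log2 ratios are Ad-KLF14 over Ad-GFP after adding 1 FPKM, so low genes differ by more than they show. Genes were kept from a mean of 1 FPKM on, and 2-fold was the line. Folds and ratios are of FPKM. Named genes are the 10 members, Klf14 and up to 4 measured genes per list furthest from 0. The members and lists were chosen with earlier results of these data known. Alternatives were other pseudocounts, filters, scalings and removal of a trend with expression. Coordinates are GRCm38.p6 and were not used with the mm8 data. A further bile duct marker is not reported here.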

Additional observations from a re-analysis of the deposited data

How the results depend on the processing

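Ankrd1 was at least 2-fold lower under all 8 alternatives (log2 ratio −2.63 to −2.28). The other members kept their sign, but a pseudocount or a filter cannot change the sign of a gene. The scalings raised the Ad-KLF14 values by factors of only 1.0165 to 1.0662. The signs were therefore hardly put to a test, and Lats2 lay near 0 throughout (0.0016 to 0.0878). Nf2 lay at the 2-fold line (0.73 to 1.08). The number of members at least 2-fold higher was therefore 1 instead of 0 with a pseudocount of 0.1 FPKM and with a trend along expression removed. It was also 1 with scaling by trimmed log ratios, by upper quartiles or by sums without Klf14. At these settings 6.77% to 8.87% of all genes were at least 2-fold higher. With a pseudocount of 5 FPKM, 0 of the 27 other pathway genes were 2-fold apart instead of 3. At that setting 2.38% of all genes were at least 2-fold higher and 3.76% lower. Of the 18 listed targets, 4 were then at least 2-fold lower instead of 5. With a pseudocount of 0.1 FPKM, 6 of the 18 were, beside 12% of all genes. With a minimum mean of 5 FPKM 4 of 14 targets were, beside 8.67%, and without a filter 5 of 22, beside 5.92%. The other alternatives gave 4 or 5 of the 18, beside 7.66% to 8.62% of all genes. The members' median was −0.04 with a pseudocount of 5 FPKM and 0.0021 with a minimum mean of 5 FPKM. With sums made equal without Klf14, the median of all genes was 0.05, its largest shift, and 986 of them were at least 2-fold higher and 951 lower, against 791 and 1117. Axl dropped out with a minimum mean of 5 FPKM. No paired analysis was possible because each group holds 1 library, and no library could be left out. No spread between cultures can be given, so the values may include differences between the cultures. Of the members, depth limits Axl most.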

Other observations

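Axl belongs to the TAM family of receptor kinases, which with their ligands Gas6 and Pros1 mark and clear dying cells. The family went both ways. Tyro3 was at 4.88 FPKM with Ad-KLF14 and 13.5 FPKM with Ad-GFP, from at least 217 and 611 reads, which is 2.78-fold lower (95% counting interval 2.37 to 3.26). Mertk, the main receptor of macrophages, was at 1.92 against 0.821 FPKM (ratio 2.34, 1.53 to 3.63), which is under 2-fold with the pseudocount. Mertk reached a mean of 1 FPKM only through its Ad-KLF14 value, so its place on the higher side follows in part from how it was kept. The ligand gene Gas6 was at 36.6 against 25.6 FPKM (ratio 1.43, 1.30 to 1.57) and Pros1, protein S, at 10.7 against 16.2 FPKM (ratio 0.660, 0.580 to 0.751). Of the 5 genes, 1 was at least 2-fold lower, beside 8.99% of all genes, and Axl was the lowest in level with Ad-KLF14.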
